A study of Mus musculus with 16 samples.

Results

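Ribosomal RNA was compared between Dnmt2 knockout (Dnmt2-/-) and wild-type mouse embryonic stem cells (J1 background) in the RNA bisulfite sequencing libraries made from long RNA without rRNA depletion. These were 4 of the 16 libraries of the study, 2 wild type (wild type 1 and 2) and 2 knockout (knockout 1 and 2), chosen by the sample titles. They list 2484 cytosines on 5 references, namely the cytosolic 18S, 28S and 5.8S rRNAs and a pair of mitochondrial transcripts. The mitochondrial references are given in the files as ENSMUST00000082388 and ENSMUST00000082390, the identifiers of the 12S rRNA mt-Rnr1 and the 16S rRNA mt-Rnr2, called mt-12S and mt-16S here. Both genotypes were grown on mouse embryonic fibroblast feeders, which were removed by their faster attachment to dishes, and no other treatment is given. RNA was separated at 200 nt, so the libraries hold the long part. The last listed cytosine of 5.8S is at position 152, short of that cutoff, and how much of this rRNA the separation kept was not tested. The labels name neither the number of knockout clones nor separate cultures behind the replicates, so every p-value rests on the spread among these libraries alone, which may be technical.

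Bisulfite turns unmodified cytosine into uracil and leaves 5-methylcytosine, so the share of reads that still show cytosine, the non-conversion level, is the readout of modification. Incomplete conversion of unmodified cytosines gives the same signal as a low level of methylation. Dnmt2, whose gene is now named Trdmt1, methylates cytosines in the anticodon loop of tRNAs. Cytosines of rRNA are methylated by other enzymes, among them Nsun5 and Nop2 (also called Nsun1) on 28S rRNA and Nsun4 on mitochondrial 12S rRNA, where Mettl15 adds the methyl group to the exocyclic nitrogen of a further cytosine (N4-methylcytosine). The comparison therefore asks whether the coverage of the rRNAs and their conversion levels differed without Dnmt2.

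Coverage summed over cytosines was between 35668553 and 40163061 in the 4 libraries, and the median cytosine was covered by 3768.5 to 4156 reads. Of the 2484 cytosines, 2461 had at least 10 reads in every library and 2302 had at least 100. Depth differed by rRNA, and all 43 cytosines of 5.8S but only 138 of the 188 of mt-12S and 247 of the 304 of mt-16S reached 100 reads in all libraries. The cell type could be checked only in the 6 rRNA-depleted long libraries, since the undepleted ones list rRNA alone. There 7 of 8 stem cell markers were listed in every library, with a summed coverage, scaled to a library total of 1000000, of 4199.9 to 5487.2 in wild type and 4955.2 to 6581.4 in knockout. Dppa5a had the largest part of that sum in every library, while Nanog was at 1.11 to 5.06 and Esrrb at 0.32 or less. Of 8 fibroblast markers 3 (Postn, Lum and Pdgfra) were at 0 and the sum was 141 to 251 in wild type and 84.3 to 145.5 in knockout. Over the 6 libraries Col1a1 was at 23.2 to 127.4, Col1a2 at 42.3 to 127.2 and Thy1 at 7.0 to 23.3, all above Nanog. A feeder remainder is therefore not excluded. Trdmt1 itself had a scaled coverage of 9.27, 8.33 and 5.98 in the wild-type and 2.85, 1.01 and 2.16 in the knockout libraries. The part of the gene that was deleted is not given in the sources used here, so this coverage does not check the deletion itself. All 3 knockout values lay below all 3 wild-type values.

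The share of coverage per rRNA did not separate the genotypes for any of the 5 rRNAs. The 5.8S rRNA, the short RNA that base pairs with 28S in the large subunit, took 47.2% and 42.5% of summed coverage in wild type and 44.9% and 40.3% in knockout. The 28S rRNA, which forms the peptidyl transferase centre, took 28.07% and 28.23% in wild type and 27.98% and 29.86% in knockout. The 18S rRNA of the small subunit took 23.7% and 28.03% in wild type and 26.2% and 28.5% in knockout. The genotypes overlapped for all 3 cytosolic rRNAs. The means were 44.8 ± 3.32% against 42.6 ± 3.22% for 5.8S, 28.2 ± 0.111% against 28.9 ± 1.33% for 28S, and 25.9 ± 3.09% against 27.4 ± 1.65% for 18S (SD, n = 2 each). For 5.8S the replicates of a genotype lay further apart than the means of the genotypes, since replicate 2 minus replicate 1 was -4.69 percentage points in wild type and -4.56 in knockout. Knockout minus wild type was -2.32 for the libraries numbered 1 and -2.19 for those numbered 2. For 28S the difference between the means was larger than the gap between the wild-type replicates and smaller than that between the knockout replicates.

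The mitochondrial rRNAs, which make up the RNA of the mitochondrial ribosome, were a minor part of the libraries. mt-12S took 0.301% and 0.336% of coverage in wild type and 0.282% and 0.372% in knockout. mt-16S took 0.762% and 0.899% in wild type and 0.669% and 0.924% in knockout. In both cases the knockout values lay on either side of the wild-type values. Exact two-sided permutation tests over libraries gave p = 0.667 for 18S and 5.8S and p = 1 for the other references, and p = 1 for all 5 after Benjamini-Hochberg adjustment (n = 2 against 2). The smallest p such a test can give here is 0.333.

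Ratios of mean coverage per cytosine do not depend on the depth of a library. They are not ratios of amounts, since coverage varied widely along an rRNA, from 9 to 107950 reads on 18S in wild type 1. The ratio of 28S to 18S was 0.401 and 0.340 in the wild-type libraries and 0.361 and 0.353 in knockout, so the knockout values lay between the wild-type ones. The ratio of 5.8S to 28S was 57.0 and 51.0 in the wild-type libraries and 54.3 and 45.7 in knockout, again overlapping. The ratio of mitochondrial rRNA to 18S and 28S was 0.0814 and 0.0870 in the wild-type libraries and 0.0695 and 0.0879 in knockout. The ratio of mt-16S to mt-12S alone did not overlap, at 1.57 and 1.65 in wild type and 1.47 and 1.54 in knockout. Its exact permutation p was 0.333 (1 after adjustment over the 4 ratios, n = 2 against 2), and with medians in place of means over cytosines the log2 ratio of knockout to wild type turned from -0.10 to 0.01.

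**Figure D1:**
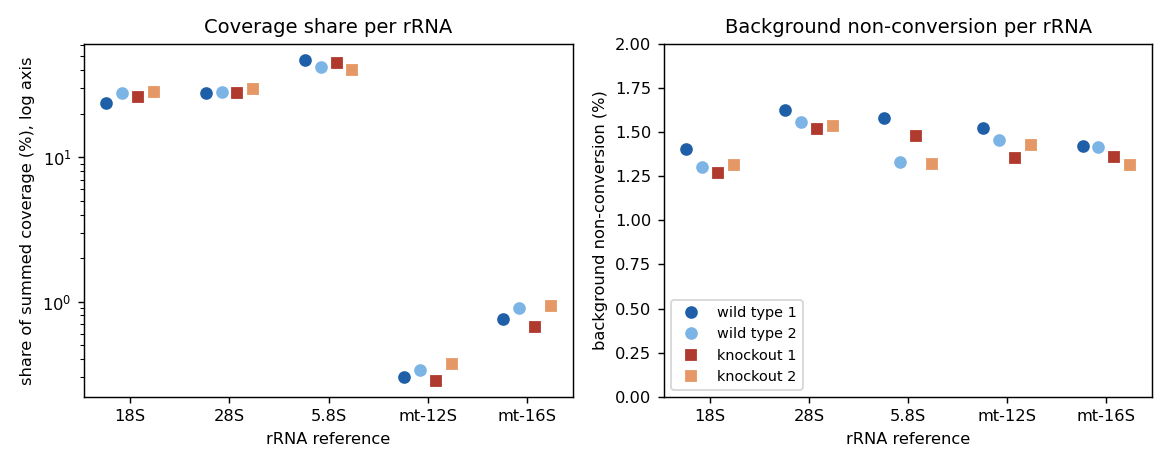
Share of summed coverage per rRNA (left, percent, log axis) and background non-conversion per rRNA (right, percent) in the undepleted libraries, 1 point per library (circles, wild type; squares, knockout). The shares of the genotypes overlap for every rRNA, and wild type 1 has the highest background in all 5 rRNAs.

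Along the rRNAs, coverage followed nearly the same profile in all libraries, with departures that separated the genotypes in places. No cytosine of 2470 passed the test of coverage between genotypes (percent called 0.0%, edgeR quasi-likelihood test, smallest Benjamini-Hochberg adjusted p = 0.664), and 174 had an unadjusted p under 0.05. The DESeq2 Wald test called 1. That cytosine, 28S 831, also had the smallest p in edgeR and was picked out after its values were seen. It was covered by 390 and 402 reads in wild type and 671 and 876 in knockout, without overlap, for a log2 fold change of 0.95. Further along, 28S 859 had 3544 and 3621 reads in wild type and 4231 and 5721 in knockout. In the other direction, mt-16S 758 had 64 and 85 reads in wild type and 36 and 37 in knockout. Neither overlapped, and both were picked from the smallest p-values. Neighbouring cytosines share reads, so such counts are not counts of independent events. The median log2 fold change of knockout against wild type was -0.02 over the cytosines of 18S, 0.03 over 28S, 0.07 over 5.8S, -0.08 over mt-12S and -0.13 over mt-16S. On mt-16S 247 of the 304 cytosines had the lower fitted value in knockout. Knockout 1 had the lowest mean coverage of mt-16S, 842 reads per cytosine, against 1007 in wild type 1, 1078 in wild type 2 and 1084 in knockout 2.

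On 5.8S, the reference with the most coverage, the stretches before and after position 100 differed between libraries in unlike ways. Past position 100 of the 5.8S reference (20 cytosines, a boundary chosen after the profile was seen) the mean coverage per cytosine was 260088 reads in wild type 1 and 275187 in knockout 1, but 117934 in wild type 2 and 120199 in knockout 2. Number 1 exceeded number 2 by 2.21-fold in wild type and by 2.29-fold in knockout, while knockout exceeded wild type by 1.06-fold and 1.02-fold within a number (exact permutation p for genotype 0.667, n = 2 against 2). At the last listed cytosine, 5.8S 152, the counts were 205663, 13784, 221797 and 16424 reads in wild type 1, wild type 2, knockout 1 and knockout 2. On the 23 cytosines up to position 100 the same libraries had 597961, 570610, 507805 and 520604 reads per cytosine, not scaled to depth. In these unscaled counts both wild-type libraries lay above both knockout libraries, and the replicates of a genotype were close together. The library totals, listed in that order, are 40163061, 36429394, 38295379 and 35668553. With each mean of this stretch divided by its library total, both wild-type libraries stayed above both knockout libraries. The gap was then narrow between wild type 1 and knockout 2. Whether this grouping exceeds the spread between libraries was not tested. As a share of 5.8S coverage this stretch took 72.6% and 84.8% in wild type and 68.0% and 83.3% in knockout, which overlap. The labels do not say whether a replicate number stands for a shared preparation or sequencing run.

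The stretch of 5.8S past position 100 made up 27.4% and 15.2% of 5.8S coverage in wild type and 32.0% and 16.7% in knockout. Its pooled non-conversion was 2.75% and 2.69% in the wild-type libraries and 2.38% and 2.55% in knockout, against 1.14%, 1.09%, 1.05% and 1.07% upstream in the same order. The background of 5.8S as a whole was 1.58% and 1.33% in the wild-type libraries and 1.48% and 1.32% in knockout. It was higher in the libraries numbered 1, which also had more coverage of the less converted stretch, and the part of that coverage in the background was not tested. As a median over cytosines the order turned, with 1.18% and 1.28% in wild type and 1.08% and 1.18% in knockout.

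On 18S, 1 library stood apart. Across the window from position 1501 to 1600, which holds 36 cytosines, wild type 1 had 18% of its 18S coverage and the other libraries had 30.7% (wild type 2), 30.4% (knockout 1) and 28.5% (knockout 2). The gap was deepest at 18S 1562, with 1826 reads in wild type 1 against 87972, 83521 and 76886. At that cytosine non-conversion was 0.219% in wild type 1 and 1.19%, 1.17% and 1.17% in the others. In all, 9 cytosines of wild type 1 had a scaled coverage at least 4 times lower than in every other library, and all of them lay between 18S 1557 and 1574. Such departures numbered 2 in wild type 2 (28S 2366 with 12 reads against 520 to 630 and 28S 2367), 1 in knockout 2 (28S 658) and 0 in knockout 1.

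The window touched the 18S values above. Without it, 18S took 20.3% and 21.3% of coverage in wild type and 19.8% and 22.2% in knockout, still overlapping. The ratio of 28S to 18S then became 0.452 and 0.455 in wild type and 0.481 and 0.458 in knockout, so that the knockout was the higher group, with an exact permutation p of 0.333 (n = 2 against 2). Leaving out libraries also changed the count of called coverage differences. It was 67 without knockout 1 (60 on 28S and 7 on 18S), 19 without wild type 2 (all on 18S between 1553 and 1597), 3 without wild type 1 and 0 without knockout 2, in each case with a genotype represented by 1 library that is assumed to vary like the other pair.

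**Figure D2:**
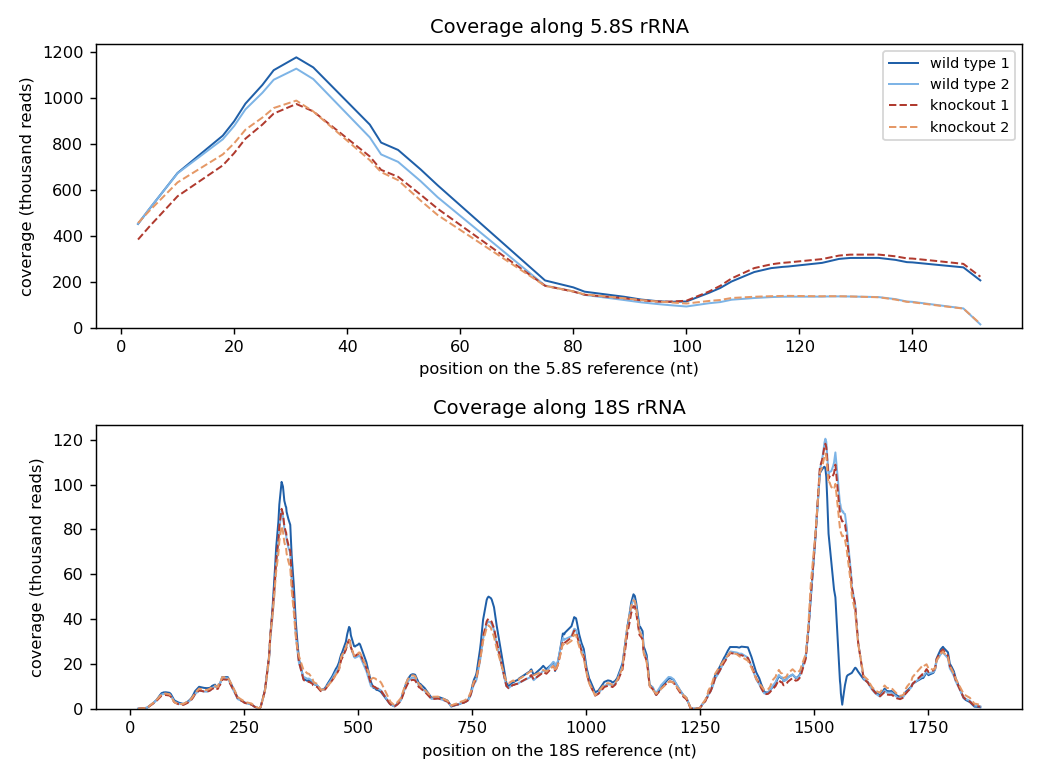
Coverage (reads divided by 1000) at each cytosine along the 5.8S (top) and 18S (bottom) references, 1 line per library (solid, wild type; dashed, knockout). Past position 100 of 5.8S the libraries numbered 1 lie above those numbered 2 in both genotypes, and on 18S wild type 1 alone drops between positions 1557 and 1574.

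Background non-conversion, pooled over cytosines at 10% or less, was 1.55% and 1.39% in the wild-type libraries and 1.43% and 1.38% in knockout, which overlap. The mean was 1.47 ± 0.115% in wild type and 1.41 ± 0.0355% in knockout (SD, n = 2 each; exact permutation p = 0.667). Wild type 1 had the highest background in each of the 5 rRNAs. On 28S the background was 1.63% and 1.56% in the wild-type libraries and 1.52% and 1.54% in knockout, on mt-12S 1.52% and 1.46% against 1.36% and 1.43%, and on mt-16S 1.42% and 1.41% against 1.36% and 1.31%. On these 3 rRNAs the genotypes did not overlap, each with the smallest exact permutation p possible, 0.333 (n = 2 against 2; 0.666 after adjustment over 6 values). On 28S they overlapped when each cytosine was counted once, at 2.03% and 1.90% in wild type against 1.95% and 1.97% in knockout, and the difference of -0.0649 percentage points was then -0.00653. Without wild type 1 it was -0.0298. On 18S the values were 1.40% and 1.30% in wild type and 1.27% and 1.32% in knockout, which overlap. With each cytosine counted once the 18S values did not overlap, at 1.60% and 1.51% against 1.47% and 1.49%. Those of 5.8S were then also apart, at 1.854% and 1.785% against 1.637% and 1.727%. On mt-12S and mt-16S the genotypes stayed apart by that count. Over all references it gave 1.93% and 1.828% in wild type and 1.834% and 1.83% in knockout, which overlap.

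The lower knockout values ran across most cytosines and were small. At coverage of 100 or more in all libraries, 1467 of 2302 cytosines were lower and 834 higher in the knockout mean, with a median difference of -0.0569 percentage points. The median absolute difference between replicates was 0.181 percentage points in wild type and 0.16 in knockout, and between a wild-type and a knockout library it was 0.16 to 0.199. Differences between genotypes were thus about as large as those between replicates. The lower values made up 39 of the 43 cytosines of 5.8S and 338 of the 488 of 18S, both deeply covered. Cytosines of a library share its background, so these are not independent counts. Knockout minus wild type in pooled background was -0.134 percentage points on 18S and -0.105 on 5.8S for the libraries numbered 1. For those numbered 2 it was 0.012 and -0.01. The difference was also larger for number 1 on 28S, at -0.108 against -0.021, and on mt-12S, at -0.165 against -0.031. On mt-16S the order turned, with -0.06 for number 1 and -0.101 for number 2. Only 26 cytosines differed by 2 percentage points or more, and 1 by 5 or more, mt-12S 840.

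The known modified cytosines of rRNA had a high non-conversion level in both genotypes. In 28S they are the substrates of Nsun5 and Nop2, taken as the pair with the highest levels over all 4 libraries, at positions 3438 and 4099 of the reference, so their height is part of the choice and the comparison of genotypes is not. Position 3438 was 95.9% and 96.9% non-converted in wild type and 96.6% and 97.5% in knockout, at 1333 to 1656 reads. Position 4099 was 95.7% in both wild-type libraries and 96.0% and 95.7% in knockout, at 2116 to 2690 reads. The genotypes overlapped at 3438, and at 4099 3 of the 4 libraries had the same rounded level. The differences of 0.596 and 0.155 percentage points had adjusted p-values of 0.695 and 0.93 (edgeR, over 162 cytosines).

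The cytosines next to these positions were converted. The 5′ neighbour of 28S 3438, at 3437, was non-converted in 2.05% and 1.51% of wild-type and 1.93% and 1.81% of knockout reads. Over the 4 cytosines within 10 nt of each position, levels ranged from 0.429% to 2.05% around 3438 and from 0.483% to 1.88% around 4099. The high level was thus restricted to a single cytosine in each of these windows, in all 4 libraries.

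In mt-12S the known sites are the N4-methylcytosine made by Mettl15 and the 5-methylcytosine made by Nsun4, taken as the 2 cytosines with the highest levels on that reference, at positions 840 and 842. As on 28S, the match to the published sites was not checked against a reference sequence. Position 840 was 47.5% and 52.0% non-converted in wild type and 54.2% and 56.2% in knockout, at 166 to 223 reads. Both knockout libraries lay above both wild-type libraries, with means of 55.2 ± 1.39% and 49.7 ± 3.22% (SD, n = 2 each). The difference of 5.46 percentage points, a log2 odds difference of 0.32, did not pass the test (edgeR adjusted p = 0.695). The 95% exact binomial (Clopper-Pearson) interval of a single library spanned 40.7% to 54.3% in wild type 1 and 48.9% to 63.3% in knockout 2, and these intervals overlap. Such intervals cover counting error only, and reads from amplified fragments are not independent molecules.

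Position 842 was 83.1% and 79.9% non-converted in wild type and 82.8% and 80.5% in knockout, at 157 to 207 reads. The genotypes overlapped (81.5 ± 2.26% and 81.6 ± 1.66%, SD, n = 2 each; edgeR adjusted p = 0.989), and the sign of the difference changed when single libraries were left out. The cytosine between the pair, mt-12S 841, was at the background of the molecule, with 1.87% and 1.37% in wild type and 1.85% and 1.06% in knockout. The other cytosines within 10 nt ranged from 0.556% to 3.79%. In the rRNA-depleted libraries transcripts of the modifying enzymes had a scaled coverage of 44.7 to 61.5 in wild type and 53.8 to 66.0 in knockout for Nsun5, and 27.1 to 29.9 against 29.7 to 31.8 for Nsun4. Nop2 was at 270.2 to 319.6 in wild type and 285.5 to 332.8 in knockout. Mettl15 was barely covered, at 2.54, 2.25 and 0 in the wild-type and 2.48, 4.84 and 3.32 in the knockout libraries.

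**Figure D3:**
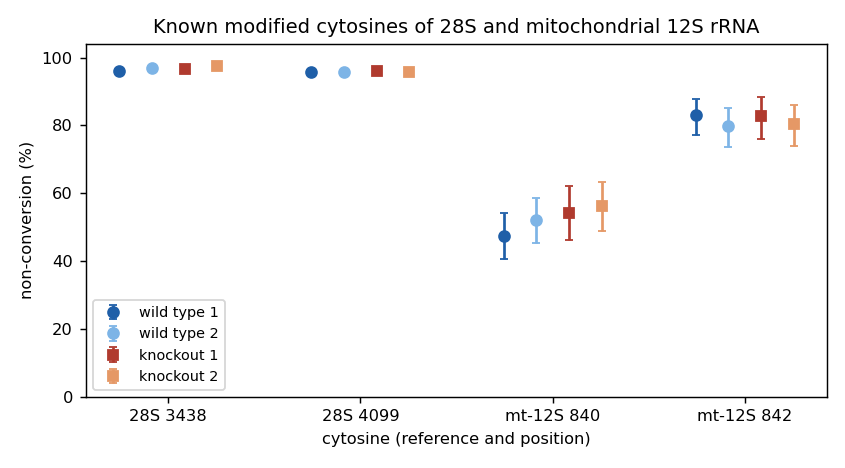
Non-conversion (percent) at the known modified cytosines of 28S and mt-12S, 1 point per library with its 95% exact binomial (Clopper-Pearson) interval (circles, wild type; squares, knockout). The 28S sites lie between 95.7% and 97.5%, and both mt-12S sites have wide intervals that overlap between genotypes.

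Of the 162 cytosines that were read at least 10 times in each library and had a mean level of at least 5%, 1 differed between genotypes (percent called 0.617%, edgeR quasi-likelihood test, Benjamini-Hochberg adjusted), and 11 had an unadjusted p under 0.05. The tested cytosines were unevenly spread, with 105 on 28S, 24 on mt-16S, 19 on 18S, 11 on mt-12S and 3 on 5.8S. Knockout levels were lower at 99 and higher at 63, with a median difference of -0.362 percentage points. By rRNA, the knockout mean was lower at 14 of 19 on 18S, 68 of 105 on 28S, 3 of 3 on 5.8S, 3 of 11 on mt-12S and 11 of 24 on mt-16S. At 60 of the 162 (37.0%) the genotypes did not overlap, 38 with the knockout lower and 22 with it higher. With 2 against 2 libraries and no difference, a share of 0.333 of the orderings does not overlap. The count is near that share, and 0.617% were called. Cytosines of a library share its background, so the count cannot decide whether genotype had an effect.

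The called cytosine was 28S 2078, the first of a run of 3 cytosines. Its level was 8.06% and 7.63% in the wild-type libraries and fell to 6.16% and 5.25% in knockout, at 2931 to 3504 reads. The fall of 2.14 percentage points (log2 odds difference -0.48) had an edgeR adjusted p of 0.0305. The next cytosines of the run did not follow. 28S 2079 was at 4.99% and 6.02% in wild type and 4.96% and 5.33% in knockout, and 28S 2080 at 5.45% and 5.56% against 6.15% and 5.78%. The call for 2078 was lost when any library was left out (edgeR adjusted p between 0.364 and 0.688), and in 6 of the 8 other settings tried.

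The next smallest p-values belonged to cytosines that did not pass. On mt-16S, position 200 was at 10.7% and 9.30% in wild type and 3.51% and 0% in knockout at 57 reads or more per library, with an edgeR adjusted p of 0.166. Taking 3 counts as the limit of a count of 0, the 0 of 89 reads in knockout 2 allows a level of up to 3.37%. Position mt-16S 1562 was at 2.44% and 0% in wild type and 11.4% and 11.3% in knockout at 41 reads or more (edgeR adjusted p = 0.271), and the 0 of 54 reads in wild type 2 allows up to 5.56% by the same limit. Position mt-16S 1564 in the same run had the opposite sign, at 10.3% and 15.4% against 5.41% and 6.82%. On 18S, position 279 was at 8.33% and 10.5% in wild type and 6.41% and 5.53% in knockout (edgeR adjusted p = 0.284). On 28S, position 1219 was at 5.57% and 5.05% in wild type and 6.25% and 6.59% in knockout (edgeR adjusted p = 0.625). The genotypes did not overlap at any of these positions. That follows largely from their choice, by smallest p or, for mt-16S 1564, after its values were seen.

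The largest differences belonged to thinly covered cytosines. The level of 28S 2849 was 30.8% and 7.69% in the wild-type libraries and 5.88% and 7.41% in knockout, a difference of -12.6 percentage points that came from wild type 1 alone at as few as 13 reads in a library. The largest positive difference of 28S was 9.12 percentage points at 28S 2929 (at least 19 reads), and that of mt-16S was 10.7 at mt-16S 18 (at least 17 reads). On mt-12S, position 432 differed by -5.52 percentage points (at least 67 reads). None passed the test.

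Intermediate levels of 5% to 20% were found in runs and neighbourhoods in both genotypes. A mean level of 5% or more was reached by 5.0% of 1099 single cytosines, by 4.89% of 695 cytosines in runs of 2, by 9.09% of 396 in runs of 3 and by 13.7% of 271 in runs of 4 or more. Of the 162 tested cytosines, 133 lay within 10 nt of another one, in 30 groups. The group with the most members, on 28S from position 560 to 580 (10 cytosines), had mean levels of 6.52% and 15.6% in wild type and 8.90% and 7.05% in knockout at as few as 16 reads, with wild type 2 alone high. The next, on 28S from 4442 to 4459 (8 cytosines), had 9.09% and 8.38% in wild type and 7.79% and 8.65% in knockout. The genotypes overlapped in both groups.

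A further 6 groups had 7 cytosines each. The deepest of them, on 18S from 1755 to 1778 with at least 15370 reads, had 6.69% and 6.12% in wild type and 6.10% and 6.41% in knockout, which overlap, as did the groups on 28S from 1216 to 1231, from 2929 to 2957 and from 4487 to 4504. The group at the 5′ end of mt-16S, from position 2 to 25, did not overlap, at 4.76% and 5.02% in wild type and 8.63% and 9.87% in knockout, with as few as 14 reads at a cytosine, and 5 of its 7 cytosines had the higher mean in knockout. On 28S from 3045 to 3061 the levels were 7.61% and 7.70% in wild type and 7.38% and 7.18% in knockout, also without overlap. No cytosine of these groups passed the test.

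On 18S no cytosine reached 10% in all libraries. By the mean over all 4 libraries its 3 highest cytosines lay in the run of 6 from 192 to 197, led by 18S 196 at 8.77% and 9.13% in wild type and 7.80% and 8.20% in knockout. All 6 cytosines of that run were between 6.25% and 9.13% in every library with at least 8879 reads. Except at 193, both knockout libraries lay below both wild-type libraries in this run. None of its cytosines passed the test (edgeR adjusted p of 0.695 or more). On 5.8S, also without a cytosine at 10%, the highest were 118 (7.13% and 6.05% in wild type, 5.91% and 5.73% in knockout), 116 and 129, and all 3 lay in the stretch past position 100. At 133633 reads or more in each library, the knockout mean at 5.8S 118 was lower by 0.77 percentage points (edgeR adjusted p = 0.695). The genotypes did not overlap at 116 and 118, and they overlapped at 129.

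Cytosines at 10% or more in all 4 libraries numbered 10, of which 8 lay on 28S and 2 on mt-12S, and 9 of the 10 had at least 100 reads in each. Below the known sites the highest level on 28S among deeply covered cytosines was that of 28S 1229, at 17% and 16.2% in wild type and 16% and 18.7% in knockout. It opens a run of 3 in which levels were lower toward the 3′ side, with 13.8%, 13.9%, 13.5% and 14.3% at 1230 and 8.30%, 7.83%, 8.18% and 10.0% at 1231, in the order wild type 1 and 2, knockout 1 and 2. In the run from 1216 to 1219 just upstream the first cytosine was also the highest, with 10.3%, 10.0%, 9.95% and 12% at 1216 against 5.57%, 5.05%, 6.25% and 6.59% at 1219, and 1219 exceeded 1218 in the knockout libraries. The genotypes overlapped at 1229, 1230, 1231 and 1216.

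On the mitochondrial rRNAs the levels outside the known sites varied more between libraries. mt-16S 1080 was at 7.80% and 10.2% in wild type and 7.86% and 11.9% in knockout, higher in both libraries numbered 2. mt-12S 64 was at 7.98% and 7.36% in wild type and 15.0% and 8.21% in knockout, and the adjacent mt-12S 65 was at 9.09% and 9.15% in wild type and 5.22% and 4.31% in knockout, so that the sign differed between neighbours. Neither passed the test (edgeR adjusted p = 0.695 and 0.642, at least 133 reads). At 100 or more reads the median absolute difference between the wild-type replicates was 0.524 percentage points on mt-12S and 0.366 on mt-16S, against 0.113 on 18S, 0.0967 on 5.8S and 0.176 on 28S.

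**Figure D4:**
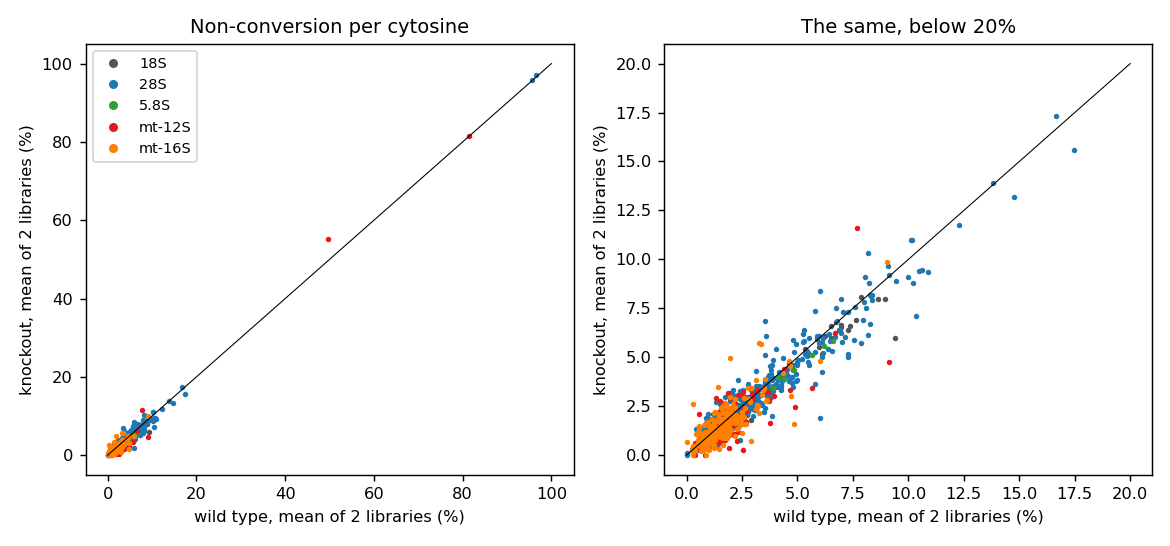
Mean non-conversion of each cytosine covered by 100 or more reads in all libraries, wild type (x axis, percent, n = 2) against knockout (y axis, percent, n = 2), coloured by rRNA, over the whole range (left) and below 20% (right). The line marks equal levels. The cytosine farthest from it at high levels is mt-12S 840, at 49.7% and 55.2%.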

How the data were processed

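The deposited files hold, per the file headers, a reference, a position, the raw read count covering that cytosine and the fraction of these reads (0 to 1) that stayed unconverted. BSMAP and mm9 are named in the submitters' processing notes, without a version or filters in the sources used here. Positions count along the deposited references, for which no sequence was used here. The lowest coverage listed was 3. The product of count and fraction was whole to within 4.7e-08 in all 9929 entries (tolerance 0.01), and non-converted read counts were recovered.

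Non-conversion was compared by edgeR's quasi-likelihood method (version 4.0.16, R 4.3.3) on counts of reads in both conversion states. The model had library terms and a genotype-by-state interaction. Cytosines needed 10 reads in each library and a mean level of 5%, and p-values were adjusted by Benjamini-Hochberg over these 162 cytosines (threshold 0.05). Coverage was tested likewise with TMM scaling, at coverage of 10 or more in at least 2 libraries. Single values were compared with exact two-sided permutation tests over libraries. Background pools reads of cytosines at 10% or less in that library. Tested on simulated data, the non-conversion test recovered 11 of 19 cytosines changed by 1 on the log2 odds scale and 16 of 19 changed by 2, among 168 tested. The coverage test recovered 96 of 100 changed by 1 on the log2 scale, among 2470. Of the unchanged cytosines, 0 of 130 and 9 of 2270 were called. The simulation drew each cytosine separately with a common spread, while real neighbours share reads, so the coverage recovery may not hold for these data. Libraries of a genotype were compared before averaging and differed by more than counting noise (chi-square per degree of freedom 1.9 in wild type and 1.69 in knockout).

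Cytosines were named by rule: known sites and cytosines within 10 nt, calls and the 5 smallest p-values, the 3 highest per reference, the 3 groups with the most members (with all 6 groups tied for the last place) and the tested cytosine with the largest difference per reference. Other cytosines of a named run and those with departing coverage were picked after their values were seen. The members and lists were chosen with earlier results of these data known. Gene names in the rRNA-depleted libraries came from a RefSeq table of GRCm38.p6, and the small RNA libraries were not used here.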

Additional observations from a re-analysis of the deposited data

How the results depend on the processing

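The count of cytosines with different non-conversion, 1 in the test used, was 0 with DESeq2, with limma on log odds, with a minimum mean level of 1%, with no minimum and with a replicate block, 7 (all lower in knockout) with Fisher's exact test on summed counts, and 0 to 0 when a library was left out. It was 1 at coverage of 100 or more and 1 relative to total non-conversion, but that 1 was 28S 1219 (adjusted p = 0.044 by edgeR). For 28S 2078 the adjusted p ranged from 0.0106 to 0.688 over these settings (edgeR, DESeq2, limma). The block on replicate number took the adjusted p of 28S 2078 to 0.07 (edgeR) and left the coverage count at 0. Deviations of libraries with the same number correlated by 0.062 over the 162 cytosines and by 0.336 in coverage. With 2 pairs and no label on the numbers, whether they pair the libraries cannot be told.

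The count of coverage differences, 0, was 1 with DESeq2 and 0 to 67 when a library was left out. Differences of knockout minus wild type reversed for the 28S share (-0.735) and the mt-12S share (-0.0101) with 5.8S left out, a setting chosen after seeing the data, and for the mt-16S share per cytosine (0.00148). On the log2 scale the ratio of 28S to 18S reversed with medians (0.031) and without the most variable 18S window (0.05, chosen after seeing the data), that of 5.8S to 28S with medians (0.064) and that of mt-16S to mt-12S with medians (0.01). When single libraries were left out, the difference ranged from -1.46 to 1.73 at mt-12S 842, from -0.143 to 0.0206 for the background of all references and from -0.184 to 0.0687 for that of 5.8S. The share differences ranged from -0.67 to 3.69 for 18S, -0.169 to 1.71 for 28S, -4.6 to 0.0894 for 5.8S, -0.0363 to 0.053 for mt-12S and -0.162 to 0.0929 for mt-16S. The log2 ratios ranged from -0.166 to 0.07 for 28S to 18S, -0.239 to 0.009 for 5.8S to 28S and -0.276 to 0.062 for mitochondrial rRNA. The cause was not tested. Of 255 values under alternatives, 206 were counted as the same. For shares, ratios and background this compared the direction only, and for counts of calls their size. At named cytosines it compared the direction and, where a test was run, the side of the threshold. The difference at a cytosine does not change with the tool, so part of this tally was fixed in advance and it does not measure robustness. With 2 libraries per genotype no single value could pass a permutation test, and depth limits what can be seen on mt-12S and mt-16S.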
